A study of Homo sapiens with 2 samples.

Results

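The 5′ domain of 18S rRNA, taken here as the positions of the molecule from 1 up to, but not including, 668, is the part that folds into the body of the small ribosomal subunit and carries the expansion segment ES3S. Its members are all positions of this stretch at which reads of RNA fragments with a cyclic phosphate end were listed. There were 588 of them, out of 1690 listed positions of 18S rRNA and 5047 listed positions of 18S and 28S rRNA together. Another 79 positions of the stretch were not listed, and to be listed a position needs 5 reads or more in 1 of the libraries.

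The reads came from 2 libraries of A549, an established cell line from a human lung carcinoma. The mock library came from cells given the transfection reagent Lipofectamine alone, and the treated library from cells transfected with poly I:C at 1 µg/mL for 1 h. Poly I:C is a synthetic double-stranded RNA that stands in for viral RNA, and the study asked where cyclic phosphate fragments arise during this treatment. Each condition had 1 library, so no difference given here has a replicate check and none has a p-value.

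As background, the 5′ domain is the first part of 18S rRNA to be transcribed and folds early in the assembly of the small subunit, while ES3S lies at the foot of the subunit, on its surface. Endoribonucleases such as RNase L, which double-stranded RNA activates by way of the second messenger 2-5A, cut RNA so that the upstream fragment ends in a 2′,3′-cyclic phosphate. Other RNases and chemical hydrolysis leave the same end. RtcB, the ligase used to tag such ends, joins them to an adapter that starts with a 5′-hydroxyl. The labels describe no cells that lack a nuclease, so a listed position is called an end position here and is assigned to no enzyme. Whether a position number marks the last nucleotide of a fragment, and whether numbering starts at 0 or 1, is not given in the sources used here, and positions are printed as deposited. No 18S rRNA sequence was used here, so no bases are shown around the sites.

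The domain held 296900 of 3079346 listed mock reads and 487111 of 3764202 listed treated reads. Its share of the listed 18S and 28S reads was 9.64% in the mock library, with a 95% exact binomial interval from 9.61 to 9.67, and 12.94% (12.91 to 12.97) in the treated one. The ratio of treated over mock, after division by each library's listed total, was 1.34 (95% counting interval 1.34 to 1.35) for the domain. It was 1.55 (1.54 to 1.56) for the rest of 18S rRNA and 0.858 (0.856 to 0.859) for 28S rRNA. Every interval treats reads as independent molecules and covers counting error only, since the libraries were amplified by PCR and no molecular identifier is described.

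The higher domain share under the listed totals rested on few end positions. Of the compared positions, meaning those with 100 reads or more when both libraries are summed, 4 were at least 10-fold higher in the treated library, namely 135, 136, 199 and 541. Together they had 2662 mock and 172964 treated reads, which was 0.0864% of the mock total and 4.59% of the treated total. Without them the domain had 294238 mock and 314147 treated reads, and its ratio was 0.873 (0.869 to 0.878) under the listed totals. Its direction depended on the scaling, since the listed totals still hold such positions of both rRNAs: the ratio was 1.11 when these were left out of the totals too, 1.08 when the libraries were scaled by the median ratio of all compared positions, and 0.596 when they were scaled to the listed 18S reads. Without position 136 alone the ratio was 1.02 (1.01 to 1.02), and without position 541 alone it was 1.26 (1.26 to 1.27). When scaled to the listed 18S reads only, the ratio of the whole domain was 0.916, below 1. Leaving out the positions at least 10-fold higher gave 0.915 for the rest of 18S rRNA and 0.757 for 28S rRNA under the listed totals.

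**Figure D1:**
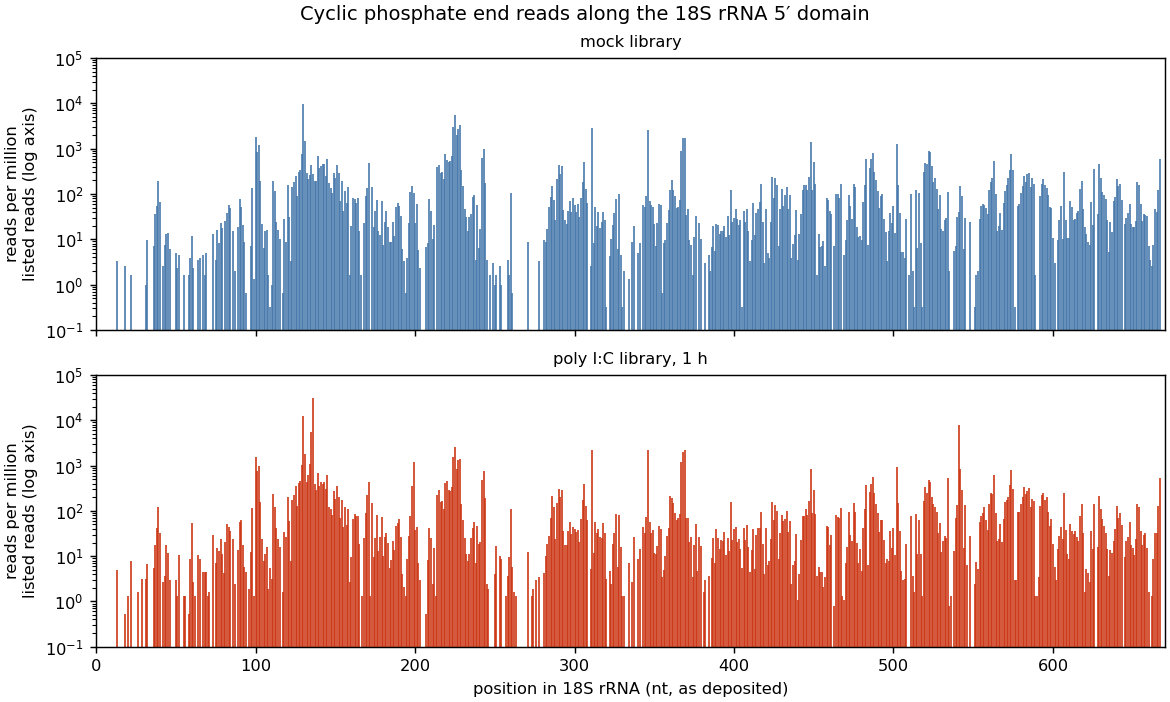
Reads per 1000000 listed reads (log axis, lines drawn from 0.1) at each position of the 18S rRNA 5′ domain, with the mock library above and the treated library below. Most peaks, such as 130, 311 and 346, stand in both libraries, while 136, 199 and 541 rise above their surroundings in the treated library.

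Position 136 was the most frequent end position of the domain after poly I:C. It had 859 reads in the mock library, where it ranked 69th of the 588 positions, and 118398 in the treated library. That is a ratio of 113 (105 to 121), and in the treated library this position alone held 24.3% of the domain's reads. Position 135, directly before it, had 1361 mock and 20674 treated reads, a ratio of 12.4 (11.8 to 13.1).

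The higher values around 136 lay mainly on the side of lower position numbers. The ratio was 1.47 (1.36 to 1.60) at 132, 2.82 (2.59 to 3.08) at 133 and 4.20 (3.89 to 4.53) at 134. On the other side it was 2.05 (1.86 to 2.25) at 137 and 1.42 (1.29 to 1.57) at 138, and it lay between 0.934 and 1.04 from 139 to 141. Summed, the 5 positions before 136 had 8333 mock and 35291 treated reads, a ratio of 3.46 (3.38 to 3.55). The 5 positions after it had 5824 and 8129, a ratio of 1.14 (1.10 to 1.18). In the mock library 136 was no peak. It ranked 7th of the 11 positions from 131 to 141 and held 5.72% of their reads, against 73.2% in the treated library.

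Position 130, which lies 6 nt before 136, was the most frequent end position of the domain in the mock library. It had 29916 mock and 46284 treated reads, a ratio of 1.27 (1.25 to 1.28), which turned to below 1 when scaled to the listed 18S reads. Position 131 beside it had 4605 and 6615 reads, a ratio of 1.18 (1.13 to 1.22), which turned in the same way. End positions 6 nt apart thus had ratios of 1.27 and 113.

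Position 541 had the highest ratio of the domain. It had 121 reads in the mock library, where it ranked 281st of 588, and 29288 in the treated library, where it ranked 3rd. The ratio was 198 (166 to 239). It was the third most frequent position of the 10 listed from 536 to 546 in the mock library, with 10.9% of their reads, and held 83.9% of them in the treated library.

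The positions on either side of 541 were higher by similar factors when summed. Position 539 had 22 mock and 258 treated reads, a ratio of 9.59 (6.20 to 15.6). At 540 the ratio was 4.29 (3.44 to 5.39), and position 542 had 468 mock and 3109 treated reads, a ratio of 5.435 (4.930 to 6.002). The most frequent mock position of this stretch was therefore 542, and the most frequent treated position was 541. The ratio was 3.24 (2.84 to 3.71) at 543 and 4.50 (3.60 to 5.69) at 545. Positions 539, 540 and 545, with 22, 96 and 91 mock reads, reached the minimum of 100 reads only with their treated reads. Summed, the listed positions from 536 to 540 had a ratio of 4.93 (4.11 to 5.96) and those from 542 to 546 one of 4.58 (4.26 to 4.93). Position 546 had 0 mock and 24 treated reads. It was at least 6.54-fold higher against a floor of 3 mock reads, and it fell under the minimum of 100 reads.

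A further peak lay 7 nt before 541. At position 534 there were 332 mock and 2041 treated reads, a ratio of 5.03 (4.48 to 5.66), while position 535 next to it had 6 and 3 reads. Of the 20 listed positions from 534 to 557, 12 were compared. The stretch was drawn by its 9 positions at least 2-fold higher, so these were above 1 by that rule. All 12 were above 1, although 2 of them lay below 1 when scaled to the listed 18S reads.

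Position 199 was the remaining site at least 10-fold higher. It had 321 mock and 4604 treated reads, a ratio of 11.7 (10.5 to 13.2). Position 198 had 458 and 1341 reads, a ratio of 2.40 (2.15 to 2.67). In the mock library 198 was the most frequent of the 10 listed positions from 194 to 204. In the treated library 199 was the most frequent of them, with 68.6% of their reads against 21.6% in the mock library. On the other side, position 200 had 70 and 141 reads, a ratio of 1.65 (1.23 to 2.23), and the listed positions from 200 to 204 together had 280 mock and 343 treated reads, a ratio of 1.00 (0.853 to 1.18).

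**Figure D2:**
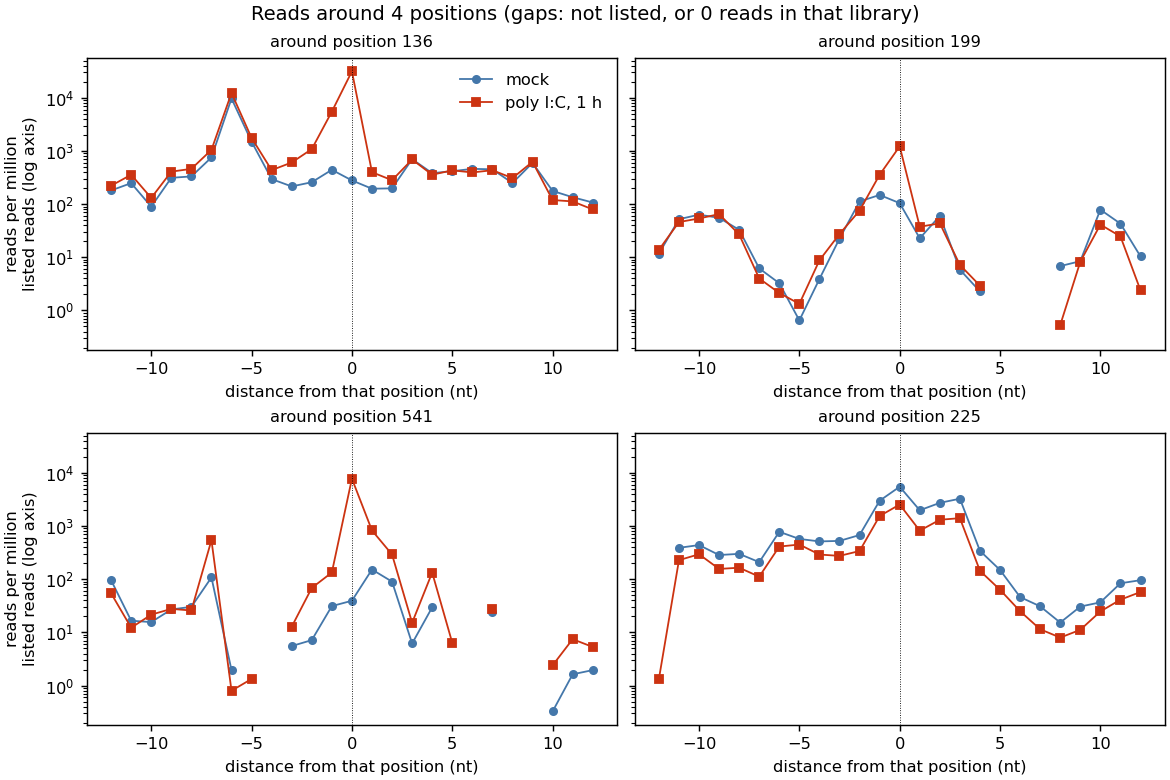
Reads per 1000000 listed reads (log axis) in the mock library (circles) and the treated library (squares) up to 12 nt on either side of positions 136, 199, 541 and 225. A narrow peak appears in the treated library at 136, 199 and 541, whereas around 225 the treated values run below the mock values with a similar shape.

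By a rule of size, a ratio of 2 or more or of 0.5 or less, 24 of 397 compared positions of the domain, or 6.05%, were at least 2-fold higher, beside a background of 8.18% over all 2750 compared positions of both rRNAs. At least 2-fold lower were 26, or 6.55%, beside a background of 10.1%. The 4 positions at least 10-fold higher made up 1.01%, beside a background of 2.84%. None of the 2750 was at least 10-fold lower. In the rest of 18S rRNA the share of higher positions was 6.49% and that of lower positions 6.06%, and in 28S rRNA these were 9.40% and 12.6%. The share at least 10-fold higher was 2.02% in the rest of 18S rRNA and 3.61% in 28S rRNA. These differences have no test with 1 library per group.

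The typical compared position of the domain had a ratio of 0.853, with quartiles of 0.685 and 1.18. The median was 0.860 in the rest of 18S rRNA, 0.768 in 28S rRNA and 0.807 over all compared positions. On the log2 scale the domain's median was -0.23, and it became 0.082 when the libraries were scaled by the median ratio of all compared positions, which moved every log2 ratio by 0.31. The same scaling gave 34 higher and 4 lower positions in the domain, so higher positions made up 48.0% of the calls under the listed totals and 89.5% under the median ratio. Scaling to the listed 18S reads, a shift of -0.55, gave 14 higher and 135 lower, or 9.40% higher. Each shift moves all positions alike, and no share over both rRNAs is given here for either scaling.

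**Figure D3:**
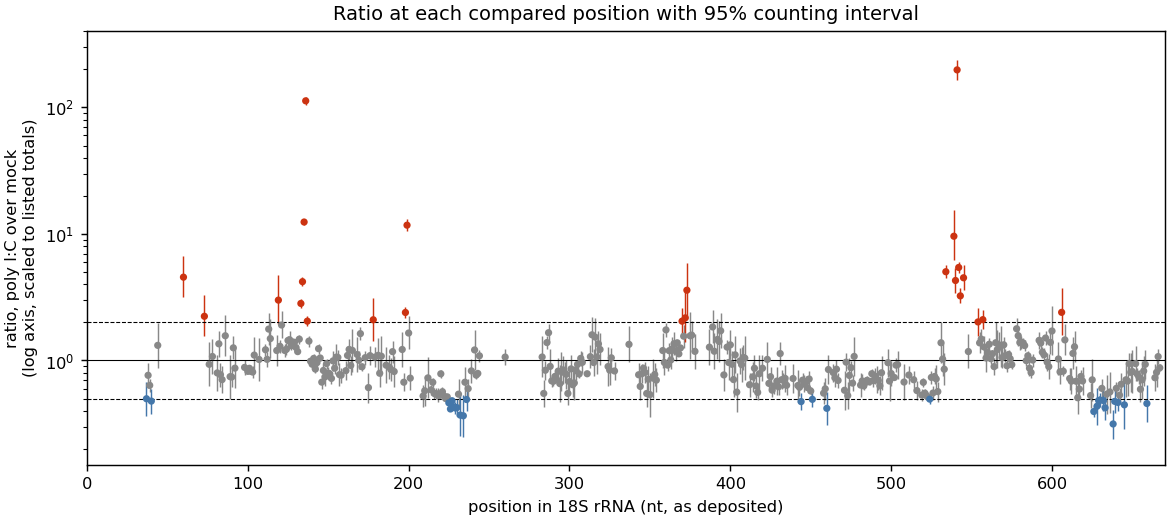
Ratio of treated over mock (log axis, scaled to the listed totals) at the 397 compared positions of the domain, each with its 95% counting interval. Dashed lines mark ratios of 2 and 0.5, red points the 24 positions at or above 2 and blue points the 26 at or below 0.5, and the higher points at 133 to 137 and 534 to 557 stand as groups.

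The called positions lay in groups. Joined where at most 10 nt apart, the 24 higher positions formed 9 groups, of which 5 were a single position. These 5 had 27 to 41 mock reads each, so they passed the minimum of 100 reads only through the treated library, where they are high. The groups from 133 to 137 and from 534 to 557 had 5 and 9 members. In the latter, 539, 540, 545 and 554, with 22, 96, 91 and 86 mock reads, reached the minimum only with their treated reads. A group at 370, 372 and 373 had 156 mock and 438 treated reads over its 3 positions. The highest ratio of this group was at 373, 3.59 (2.27 to 5.92) on 23 and 101 reads. Positions 372 and 373, with 29 and 23 mock reads, also reached the minimum only with their treated reads. The adjoining frequent pair at 368 and 369 had ratios of 1.13 (1.09 to 1.17) and 1.26 (1.21 to 1.30), which turned to below 1 when scaled to the listed 18S reads. Among the lone positions, 60 had 37 mock and 206 treated reads, a ratio of 4.55 (3.20 to 6.65). Position 119 had 27 and 99, a ratio of 3.00 (1.94 to 4.78), which was 1.36 when summed with its neighbours.

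The 26 lower positions formed 6 groups, of which those from 225 to 236 and from 626 to 645 had 9 and 10 members. The first covers a broad peak of the mock library. Position 225, the second most frequent of the domain there, had 16903 mock and 9553 treated reads, a ratio of 0.462 (0.451 to 0.474). Position 228 had 10058 and 5291 reads, a ratio of 0.430 (0.416 to 0.445). The ratio was 0.414 (0.396 to 0.432) at 226, 0.481 (0.464 to 0.498) at 227 and, at 229, 0.421 (0.379 to 0.468). From 225 to 229 the ratios lay between 0.513 and 0.596 under the median-ratio scaling, outside the 2-fold rule. They lay between 0.524 and 0.609 with totals that leave out the positions at least 10-fold higher. The 12 positions from 225 to 236 had 43720 mock and 24100 treated reads, a ratio of 0.451 (0.444 to 0.458). They held 14.7% of the domain's mock reads and 4.95% of its treated reads. The domain's 487111 treated reads include 172964 at the 4 sites at least 10-fold higher, which lowers the share of any other stretch. All 11 compared positions from 225 to 236 were below 1, of which 9 were so by the rule that drew the group. Under the listed totals, 151 of the 397 compared positions of the domain were above 1, beside 897 of the 2750 of both rRNAs. Position 224, just before the group, had a ratio of 0.516 (0.499 to 0.533) on 9210 and 5811 reads.

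The group from 626 to 645 had fewer reads. Its 18 listed positions summed to 6751 mock and 4044 treated reads, a ratio of 0.490 (0.471 to 0.510). All 16 compared positions were below 1, of which 10 were so by the rule that drew the group. Position 638 had the lowest ratio of the compared positions, 0.315 (0.241 to 0.408), on 213 and 82 reads. A lower ratio was found at 14 positions under the minimum, each with at most 62 reads over both libraries. Position 626 had 1081 and 522 reads, a ratio of 0.395 (0.355 to 0.439). At 633 the ratio was 0.423 (0.338 to 0.527). Under the median-ratio scaling the ratio was 0.524 at 633, 0.490 at 626 and 0.391 at 638. Elsewhere, the ratio at 460 was 0.419 (0.306 to 0.567), or 0.606 when summed with its neighbours, while positions 232 and 234 of the first group had ratios of 0.370 (0.252 to 0.536) and 0.366 (0.248 to 0.531).

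In consecutive 50-nt windows the domain split into alternating stretches. Of the 14 windows, the last of which has 17 nt, 2 were at least 2-fold higher and none at least 2-fold lower. Positions 101 to 150 had 68551 mock and 238437 treated reads, a ratio of 2.85 (2.82 to 2.87), which was 1.23 (1.21 to 1.24) without 135 and 136 and turned to 0.837 when scaled to the listed 18S reads. Positions 501 to 550 had 20182 and 51330 reads, a ratio of 2.08 (2.05 to 2.11), which was 0.899 (0.882 to 0.916) without 541 and turned to 1.11 under the median-ratio scaling. Both ratios rested on those sites, and they were 1.94 and 1.42 when scaled to the listed 18S reads. The lowest window was 201 to 250, with 74145 and 46717 reads and a ratio of 0.515 (0.509 to 0.521). It held 25.0% of the domain's mock reads, more than any other window there, and 9.59% of the treated reads. The treated total includes the sites at least 10-fold higher, which lowers the share of windows without them. Positions 601 to 650 stood at 0.603 (0.586 to 0.620) and positions 401 to 450 at 0.657 (0.642 to 0.673). Positions 351 to 400 stood at 1.23 (1.21 to 1.25) and positions 551 to 600 at 1.15 (1.13 to 1.17) without any site at least 10-fold higher, and both lay below 1 when scaled to the listed 18S reads. The median ratio of the compared positions within a window ran from 0.545 for 201 to 250 up to 1.27 for 351 to 400.

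**Figure D4:**
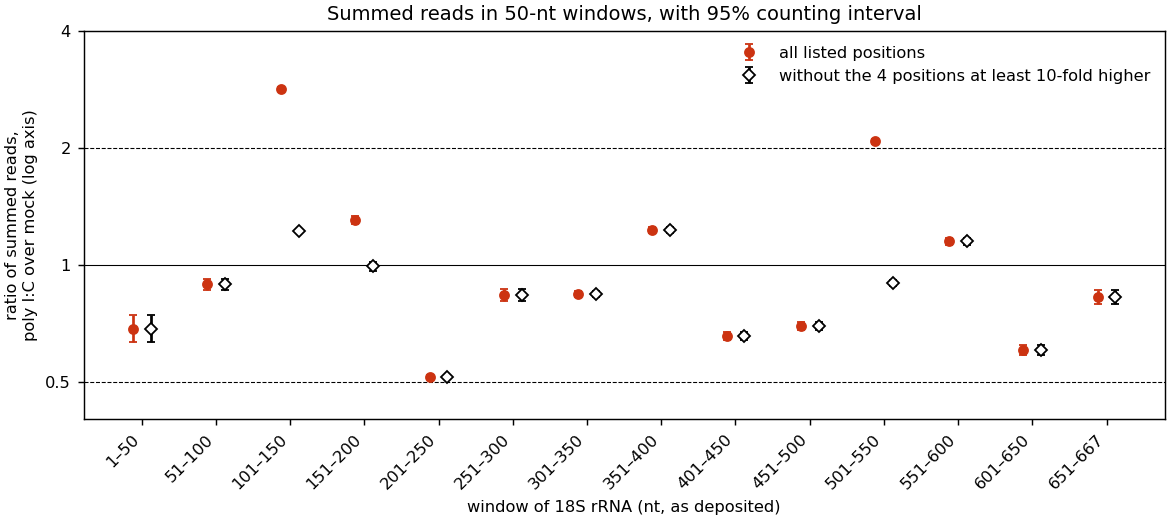
Ratio of summed reads, treated over mock (log axis, scaled to the listed totals), in 14 windows of the domain, with all listed positions (filled circles) and without 135, 136, 199 and 541 (open diamonds). Bars are 95% counting intervals, and the windows 101 to 150 and 501 to 550 pass 2 only with those positions.

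Ratios of neighbouring positions were alike. Across pairs of compared positions 1 nt apart, the log2 ratios correlated with Pearson's r = 0.642 (314 pairs). This r was 0.421 at 5 nt (271 pairs), 0.201 at 10 nt (266 pairs) and -0.030 at 50 nt (236 pairs). Spearman's rho over the same pairs was 0.732 at 1 nt, 0.648 at 5 nt, 0.471 at 10 nt and -0.078 at 50 nt. These are descriptions across positions of the same 2 libraries, which share depth and are not replicates.

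Outside the few sites above, the order of end positions by reads was much the same in both libraries. Of the 12 most frequent positions, 9 were among the 12 in both. The 12 most frequent mock positions had ratios from 0.414 to 1.27. Position 311 had 8684 mock and 8338 treated reads, a ratio of 0.785 (0.762 to 0.810). Position 346 had 7971 and 8472 reads, a ratio of 0.869 (0.843 to 0.897), and position 100 had 5652 and 5669 reads, a ratio of 0.821 (0.791 to 0.851). The ratios at 346 and 100 turned to above 1 under the median-ratio scaling. Across the 588 listed positions, log2 of reads per 1000000 listed reads plus 1 had a Pearson's r of 0.930 between mock and treated. This was 0.892 across 1102 positions in the rest of 18S rRNA and 0.870 across 3357 positions in 28S rRNA. These correlations describe positions of the same pair of libraries.

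The domain's reads were more concentrated at its most frequent positions after poly I:C. Positions 136, 541 and 135 held 24.3%, 6.01% and 4.24% of its treated reads. Its 10 most frequent positions made up 36.5% (36.3 to 36.6) of the domain's mock and 54.0% (53.9 to 54.2) of its treated reads. To reach 50% of the reads took 22 positions in the mock library and 8 in the treated library. The median over listed positions was 111 mock and 121 treated reads. These counts are unscaled, and the treated library had the larger listed total.

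The 191 listed positions under the minimum of 100 reads held 1.04% of the domain's mock and 0.833% of its treated reads. Among them, 28 had 0 mock reads, with at most 24 treated reads, and 6 had 0 treated reads. No compared position had 0 reads in either library. Of the 79 positions that were not listed, 31 lay in the first 50 nt, including all of 1 to 12, and 15 lay between 251 and 300, where 264 to 270 formed the longest run after that. The upper limit of the domain is approximate and fell within a stretch of small differences. The last position inside had 1825 mock and 1952 treated reads, a ratio of 0.875 (0.820 to 0.933). The first outside, 668, had 7 and 13.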

How the data were processed

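Cyclic phosphate-bearing RNA of 2 libraries, 1 per condition, was ligated to an adapter with RtcB, reverse transcribed, circularised, amplified and sequenced, per the labels' protocols. The deposited values are counts of reads per rRNA position, per the file headers, with no normalisation or pooling. The build was hg19, per the submitters' processing notes, while no aligner or counter is given in the sources used here. In the authors' deposited table, a ratio of the counts plus 0.5, not scaled for library size, and a score, that ratio times the poly I:C reads, were left out.

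Counts were divided by each library's sum over all listed 18S and 28S positions, not its whole depth, which is unknown. Ratios carry exact conditional binomial (Clopper-Pearson) 95% intervals (SciPy 1.17.1), and shares exact binomial ones. Positions with 100 or more reads over both libraries were compared. Counts of 0 were set to a floor of 3 reads for the ratio. The ratios, intervals and 2-fold rule were tested on simulated Poisson counts with a known scaling factor. That test covers neither the choice of scaling nor spread beyond counting error. Named positions are the 15 highest and 8 lowest ratios, the 12 most frequent of each library, and those within 5 nt of a site at least 10-fold higher. Others (370, 372, 535, 554 and the 2 at the domain's limit) and the groups of called positions were picked with their values in view. The domain itself was chosen with earlier results of these data known. Alternatives were 3 scalings, 3 read minimums, other rules of size, summed neighbours, other domain ends and windows, and another pseudocount.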

Additional observations from a re-analysis of the deposited data

How the results depend on the processing

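Summing each position with its neighbours moved the sites at least 10-fold higher to 40.8 at 136, 38.8 at 135, 39.3 at 541 and 5.86 at 199. Of the called named positions, it took 119, 234 and 460 out of the 2-fold rule. The 3 scalings shift all positions alike by less than the 2-fold rule. They could therefore move no called position across 1, though a position could lose its call. Among uncalled named positions and all 4 alternatives, 23 values turned to the other side of 1. The summed ratio of 1.34 became 1.66 under median-ratio scaling, 1.70 with totals that leave out positions at least 10-fold higher, 0.916 when scaled to 18S reads and 1.35 with the domain ending at 650. Added after seeing the data, it became 0.873 without the positions at least 10-fold higher (1.08, 1.11 and 0.596 under those 3 scalings), 1.02 without 136 and 1.26 without 541. In the same order of the 3 scalings, the 26 lower positions became 4, 3 and 135, and the median log2 ratio of -0.23 became 0.082, 0.11 and -0.78. Scaling to 18S reads also gave 14 higher positions in place of 24, and 0 windows at least 2-fold higher in place of 2, which are descriptions without a test. With 20 reads as the minimum there were 49 higher and 46 lower of 522 positions, and with 1000 reads 11 and 9 of 124. With no minimum there were 71 and 57 of 588, and a median log2 ratio of -0.11. No share over both rRNAs is given here for these minimums or for the 3 scalings. A 4-fold rule left 11 higher and 0 lower of the 397 compared positions, beside 111 higher of the 2750 of both rRNAs. An interval wholly beyond 2-fold left 15 higher and 8 lower of the 397, beside 160 and 90 of the 2750. With 25-nt windows 4 of 27 were at least 2-fold higher, and with 100-nt windows 1 of 7. No count over both rRNAs is given here for windows of any size, nor for lower positions by the 4-fold rule. Where no construction shows the reason, the cause was not tested. With 1 library in each group no replicate could be left out. No paired analysis was possible because the groups share fewer than 2 replicate numbers. Depth limits positions with few mock reads, such as 539 at 9.59 (6.20 to 15.6).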
